A study of Mus musculus with 6 samples.

Results

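Natural killer (NK) cells of the fibrotic mouse lung were taken from 6 single-cell RNA libraries. The cells were chosen by measured values, namely counts of unique molecular identifiers (UMIs, 1 per captured RNA molecule) in the same libraries. A cell needed at least 1000 UMIs, at least 500 genes and at most 10% of UMIs in mitochondrial (mt-) genes, at least 1 UMI of Ncr1 or Klrb1c, at least 2 UMIs of Klre1, Klra8 and Prf1 together, and none of Cd3e, Cd3d or Cd79a. By this rule, 1385 of the 25704 cells of the 6 libraries were NK cells: 192, 261 and 189 in IgG1 mice 1 to 3 and 175, 323 and 245 in ipilimumab mice 1 to 3. All 6 animals were 12-week-old male mice of the hCTLA4 genotype, which carry human CTLA4 sequence in the mouse gene, and all had bleomycin lung injury (2 doses of 1.25 U per kg, 2 weeks apart). Starting 21 days after the later dose, 3 mice received the isotype control IgG1 and 3 the anti-CTLA4 antibody ipilimumab, each at 5 mg per kg 2 times a week for 4.5 weeks. No untreated or uninjured lung is among these libraries, so every value below is for injured lung under an antibody. The cells came from the right lung, with no sort named in the methods, and each library held 37666042 to 48612412 UMIs, of which the NK cells gave 1281093 to 2418195. The median NK cell had 5847, 5962 and 6702 UMIs in the IgG1 mice and 6973, 6026 and 5692 in the ipilimumab mice.

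NK cells are innate lymphocytes that kill stressed or infected cells by releasing perforin and granzymes, and that secrete interferon gamma and chemokines. They are held in check or triggered by germline-encoded receptors, in the mouse mainly the Ly49 (Klra), NKR-P1 (Klrb1) and NKG2 (Klrc, Klrk1) families. Mouse NK cells mature from cells that carry CD27 to cells that lose CD27 and gain CD11b (Itgam) and KLRG1, under the T-box factors Eomes and T-bet (Tbx21), and the lung is known for holding many mature NK cells. CTLA4, the target of ipilimumab, is an inhibitory receptor mainly of T cells.

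The genes that the rule did not use were those of NK cells. Levels are UMIs per 1000000 UMIs (CPM) of the summed NK cells of a mouse, as mean ± SD of 6 mice. Each molecule gives 1 tag at its 3' end, so these levels were set side by side across genes without a length term. Whether gene length still bears on them was not tested. Gzma (granzyme A) reached 7916 ± 489 CPM against 740 CPM in the Ccl5-positive CD8 T cells of the same lungs (884 cells) and 3.25 CPM in B cells (9005 cells). Nkg7, a protein of cytotoxic granules, stood at 1920 CPM against 673 and 1.24 CPM. Gzmb (granzyme B) stood at 711 CPM against 152 and 0.652 CPM, and Itga2 (CD49b, the DX5 antigen of mouse NK cells) at 654 ± 75 CPM against 13.3 and 1.39 CPM. The transcription factor genes Eomes and Tbx21 stood at 280 and 488 CPM, against 51.4 and 155 CPM in CD8 T cells. These comparisons between cell types carry no test, because the rule itself drew the border between them.

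The genes with the largest fold over both other cell types were, after Ncr1 and Klra8 of the rule, Klra4, Klrb1b, Klri2, Cma1, Aoah, Clnk and Klrb1a. Klra4, an activating Ly49 receptor gene, had 873 ± 54.6 CPM in NK cells against 4.26 CPM in CD8 T cells and 0.478 CPM in B cells. Cma1, a mast cell chymase gene that mouse NK cells also express, had 227 ± 29.1 CPM against 0.98 and 0.079 CPM. The Klra genes are near copies of each other, and how reads shared between them were split cannot be seen in the counts. By level, the most abundant RNAs were Malat1, Tmsb4x and Ccl5. Ccl5, a T cell and monocyte attractant, had 12064 ± 1507 CPM, against 6828 CPM in CD8 T cells.

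**Figure D1:**
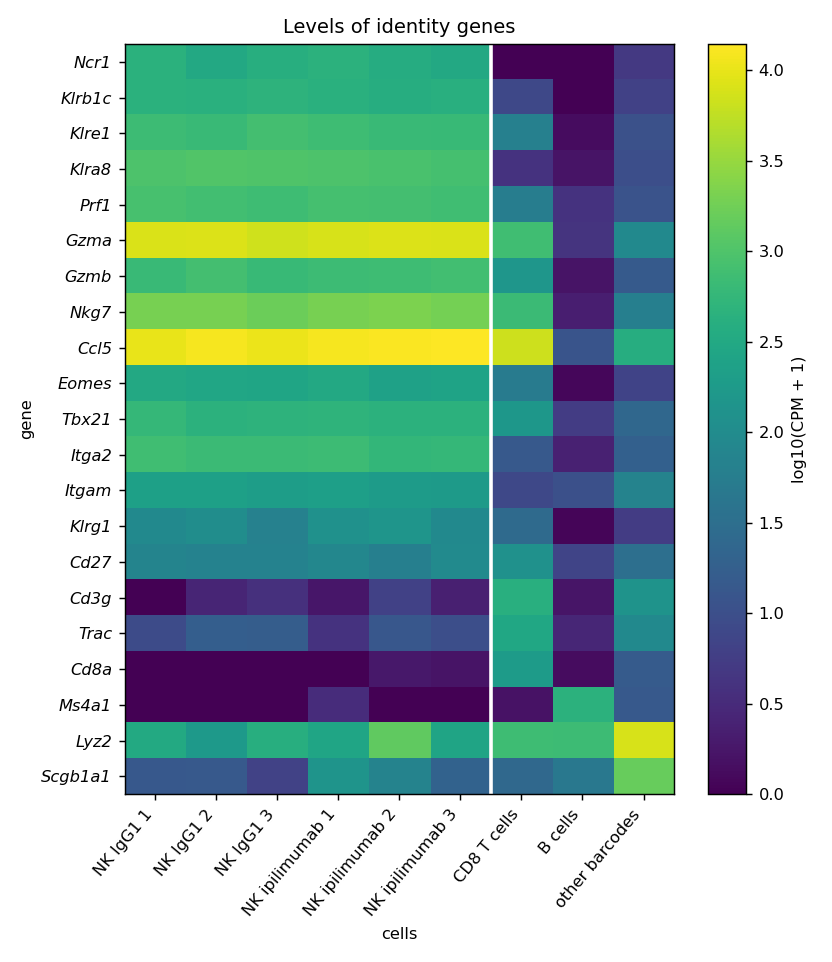
Levels of 21 genes (rows) as log10(CPM + 1) in the summed NK cells of each of the 6 mice (left of the white line) and, as means over mice, in Ccl5-positive CD8 T cells, B cells and the other barcodes that passed the limits on UMIs. Gzma and Ccl5 are the brightest rows in all 6 NK columns, and Cd3g, Cd8a and Ms4a1 stay near 0 there.

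The 14 listed genes of the resident type 1 innate lymphoid cells (ILC1), relatives of NK cells, ranged widely. Il7r had 8.33 CPM in NK cells, Itga1 9.44, Cxcr6 1.02 and Tnfsf10 3.72 CPM, and Zfp683 had no UMI. Xcl1, Rgs1 and Rgs2 of the same list had 270 ± 104, 271 ± 25.2 and 299 ± 28.4 CPM in NK cells, against 21.2, 133 and 156 CPM in CD8 T cells. The checkpoint genes differed among themselves as well. Ctla4 had 1.54, 5.13 and 5.5 CPM in the NK cells of the IgG1 mice and 9.37, 4.14 and 18.0 CPM in those of the ipilimumab mice, against 246 CPM in CD8 T cells and 24.8 CPM in B cells. The NK level of Ctla4 thus lay below that in B cells. How much of the human CTLA4 sequence of these mice aligned to mouse Ctla4 was not tested. Pdcd1 (PD-1) had 0.128 CPM and Lag3 1.13 CPM. Tigit had 25 CPM in NK and 15.1 CPM in CD8 T cells, Cd274 65.7 and 69.7 CPM, and Cd28 102 and 487 CPM.

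Genes that mark other cells were present as well. The 11 T cell markers summed to 615 CPM over the 6 mice (3451 CPM in CD8 T cells), led by Trbc1 with 329 CPM. The T cell receptor component gene Cd3g, which the rule did not use, had a UMI in 0.777% of NK cells, against 95.2% of CD8 T cells and 0.372% of B cells (median depths of 6124, 10019 and 5618 UMIs). The 8 monocyte and macrophage markers summed to 518, 352 and 553 CPM in the IgG1 mice and to 527, 1547 and 494 CPM in the ipilimumab mice, led by Lyz2 (lysozyme) with 463 CPM. The 7 alveolar macrophage markers summed to 1678 CPM in ipilimumab mouse 2 and to 454 to 837 CPM in the other mice. Ipilimumab mouse 2 thus carried the most macrophage RNA in its NK cells. Over the 6 mice the monocyte and macrophage markers averaged 665 CPM in NK, 843 in CD8 T and 766 CPM in B cells, and 8173 CPM in the remaining cells. The alveolar macrophage markers averaged 783, 737, 851 and 8262 CPM in the same order. A Lyz2 UMI was found in 27.4% of NK, 35.6% of CD8 T and 27.2% of B cells. The 6 epithelial markers, led by Scgb1a1, summed to 158 CPM in ipilimumab mouse 1 and to 5.5 to 79.4 CPM elsewhere. Il5 and Il13 of type 2 innate lymphoid cells, Mcpt8 and Ms4a2 of basophils and mast cells, Siglech of plasmacytoid dendritic cells and Ppbp of platelets had no UMI. Over all pairs of libraries 70 cell barcodes were shared, 1 of them between NK cells.

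The border of the rule can be read from the cells next to it. Of the NK cells, 19 held exactly 2 UMIs of Klre1, Klra8 and Prf1, and their sum gave 5559 CPM of Gzma and 36.7 CPM of Lyz2. A further 26 cells just outside held exactly 1 such UMI, with 1879 CPM of Gzma and 4109 CPM of Lyz2. With exactly 1 UMI of Ncr1 and Klrb1c, 120 cells lay inside, with 5744 CPM of Gzma and 1084 CPM of Lyz2. The 1265 NK cells with 2 or more such UMIs had 8174 CPM of Gzma and 496 CPM of Lyz2. The 76 cells without such a UMI lay outside, with 2990 CPM of Gzma and 10523 CPM of Lyz2. Outside for a single Cd3e or Cd3d UMI were 48 cells, with 6192 CPM of Gzma and 15.2 CPM of Cd3g.

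The granule proteases Gzma and Gzmb, the natural cytotoxicity receptor gene Ncr1 and the lymphotactin gene Xcl1 stand for the groups that the results below turn on. Gzma lies on chromosome 13 (113093825 to 113100981, minus strand), Gzmb on chromosome 14 (56258838 to 56262260, minus strand), Ncr1 on chromosome 7 (4337724 to 4345164, plus strand) and Xcl1 on chromosome 1 (164931644 to 164935527, minus strand) of GRCm38 (GENCODE M21). Their promoters are printed as the 250 bases before a RefSeq start (GRCm38.p6, 5' to 3' on the gene's strand), since Eomes, Tbx21 and Runx3, all present here, are DNA-binding factors of the T-box and Runx families. Capitals mark the core letters TCACAC or GTGTGA (T-box) and TGTGGT or ACCACA (Runx, both strands in each case), and no marked matches overlap. RefSeq gives 2 starts for Ncr1. Its window from 4337465 to 4337714 is shown, and the window from 4337474 to 4337723 holds the same number of matches.
Gzma, chr13:113100982-113101231: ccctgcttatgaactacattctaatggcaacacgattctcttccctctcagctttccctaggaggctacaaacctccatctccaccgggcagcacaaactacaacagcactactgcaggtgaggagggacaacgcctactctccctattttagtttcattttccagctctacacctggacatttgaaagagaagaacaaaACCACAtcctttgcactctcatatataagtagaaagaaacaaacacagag
Gzmb, chr14:56262335-56262584: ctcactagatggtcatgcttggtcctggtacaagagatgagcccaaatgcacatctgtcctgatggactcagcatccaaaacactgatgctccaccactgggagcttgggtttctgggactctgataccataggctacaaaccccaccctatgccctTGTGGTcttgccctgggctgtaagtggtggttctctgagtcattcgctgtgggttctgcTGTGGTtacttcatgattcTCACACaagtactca
Ncr1, chr7:4337465-4337714: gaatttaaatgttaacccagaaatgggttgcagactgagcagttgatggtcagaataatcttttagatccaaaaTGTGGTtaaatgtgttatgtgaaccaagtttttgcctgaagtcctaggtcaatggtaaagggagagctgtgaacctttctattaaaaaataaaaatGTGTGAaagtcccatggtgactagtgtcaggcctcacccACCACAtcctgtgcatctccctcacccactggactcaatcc
Xcl1, chr1:164935523-164935772: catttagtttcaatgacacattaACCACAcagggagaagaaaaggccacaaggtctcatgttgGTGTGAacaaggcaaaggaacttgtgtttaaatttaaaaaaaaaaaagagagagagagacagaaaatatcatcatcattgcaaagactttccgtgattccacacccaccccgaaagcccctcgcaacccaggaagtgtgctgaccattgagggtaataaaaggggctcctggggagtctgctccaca
The T-box letters occur in 12.3% and the Runx letters in 14% of the 32851 promoters of this length. More promoters were searched in the same way and are not printed. That of Prf1 held 1 Runx match and that of Emb 1 T-box match. Those of Cma1, Itgam, Cd27, Tcf7, Eomes, Itga2 and Ctla2a held neither set of letters. A match describes the letters and shows no binding.

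The number of NK cells under ipilimumab was compared first. NK cells made up 4.24%, 6.04% and 5.65% of the cells of the IgG1 mice and 3.38%, 7.76% and 5.86% of those of the ipilimumab mice. The ipilimumab mice held both the lowest and the highest share, so the groups overlapped fully. The means were 5.31 ± 0.949% and 5.67 ± 2.20% (SD, n = 3 each; exact two-sided permutation test, p = 0.9, the smallest p that 3 against 3 mice allow being 0.1). The difference of 0.36 percentage points turned to -0.18 without IgG1 mouse 1 and to -0.69 without ipilimumab mouse 2.

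The composition of the NK cells along Cd27, Eomes, Itga2 and Gzma was compared with each cell thinned to 1000 UMIs, since deeper cells show more genes. A Cd27 UMI was found in 5.07 ± 0.591% (SD) of the NK cells of the IgG1 mice and 5.33 ± 1.32% of those of the ipilimumab mice, and an Eomes UMI in 23.3 ± 3.75% and 23.6 ± 2.62%. An Itga2 UMI was found in 41.9 ± 2.08% and 41.2 ± 1.47% and a Gzma UMI in 97.1 ± 1.18% and 97.2 ± 1.90% (exact two-sided permutation tests, p = 1, 0.9, 0.6 and 0.9, n = 3 each). At the full depth, Cd27 was found in 21.1% to 25.7% of the NK cells of a mouse, Eomes in 62.0% to 75%, Itga2 in 81.6% to 89.6% and Gzma in 97.4% to 100%. Among B cells, which should lack the granule gene Gzma, a Gzma UMI was found in 1.40%. An Eomes UMI was found there in 0.109%, an Itga2 UMI in 0.543% and a Cd27 UMI in 3.71%. How much of the Cd27 share was background was not tested. None of the 4 shares differed beyond the spread between mice, and an effect under that spread cannot be seen with 3 mice per group.

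**Figure D2:**
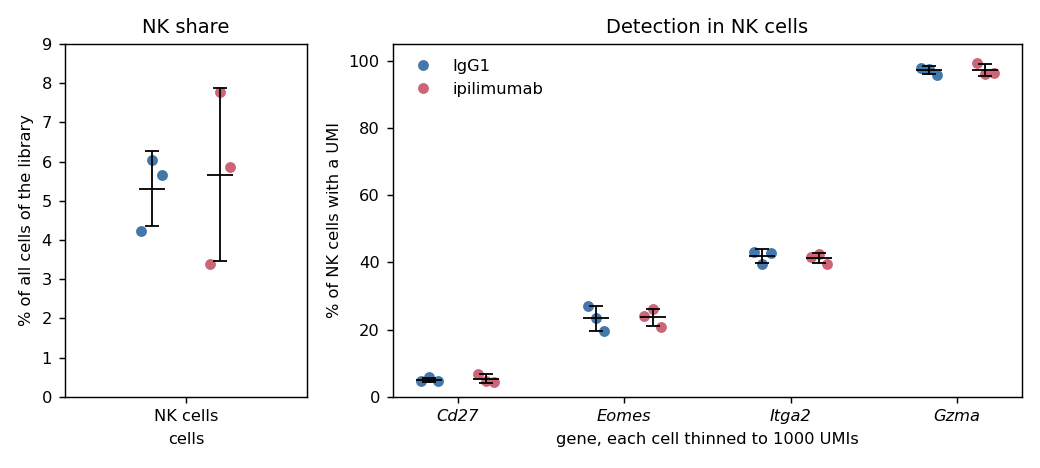
Left, NK cells as percent of all cells of each library. Right, percent of NK cells with a UMI of Cd27, Eomes, Itga2 or Gzma after thinning each cell to 1000 UMIs. Points are mice, bars the mean ± SD of 3 mice; the points of IgG1 and ipilimumab overlap for every measure.

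No gene was called between the NK cells of ipilimumab and IgG1 mice. Calls needed both a Benjamini-Hochberg adjusted p below 0.05 and a log2 fold change beyond 0.3 in either direction, from the edgeR quasi-likelihood test on sums per mouse, and 0 of 8872 genes tested were called (0.00%), without the genes of the rule, which are left out of all counts below. At an unadjusted p under 0.05 there were 390 genes (4.40%). DESeq2, run without a filter for low counts, called 0 of 18501 genes, with 193 at an unadjusted p under 0.05. The CPM of the groups did not overlap in 858 of the 8872 genes (9.67%). In simulated counts the edgeR test called 55 of 86 genes with a change of 1 on the log2 scale, so changes of that size can be missed.

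None of the main cytotoxic and chemokine genes was called. Gzma had 8008, 8285 and 7032 CPM in the IgG1 mice and 7743, 8390 and 8039 CPM in the ipilimumab mice, a log2 fold change of 0.06 (SE 0.0837, edgeR adjusted p = 0.96). Ccl5 had 10065, 12373 and 10537 CPM against 12237, 13214 and 13956 CPM, a log2 fold change of 0.26 (SE 0.0946, adjusted p = 0.958). Only the lowest ipilimumab value of Ccl5 fell within the IgG1 range. Xcl1, whose product attracts cross-presenting dendritic cells, had 241, 232 and 250 CPM against 454, 303 and 141 CPM, so that the ipilimumab mice lay on both sides of the IgG1 mice. Among the genes the rule used, given as description, Prf1 (perforin) had 855, 787 and 729 CPM against 836, 811 and 747 CPM.

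Of the 17 granule genes tested, 10 had a positive log2 fold change and 0 an unadjusted p under 0.05, with a median of 0.08 beside 0.01 over all genes. Of the 18 genes of mature NK cells, 10 were positive and 3 had an unadjusted p under 0.05 (median 0.06). Of the 14 genes of immature NK cells, 8 were positive and 1 had an unadjusted p under 0.05 (median 0.08). Of the 11 interferon-stimulated genes, 6 were positive and 0 had such a p (median 0.10). Of the 13 cell division genes, 2 were positive and 1 had such a p (median -0.22). Of the 14 immediate early genes 4 were positive (median -0.12) and of the 15 activating receptor genes 5 (median -0.09). Of 83 ribosomal protein genes, a list made after the values were seen, 78 were positive and 1 had such a p (median 0.07). In these lists and in every other NK list the count called was 0.

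The 10 genes of smallest p, none of them past adjustment (adjusted p = 0.958 for each), were Adamts6, Scgb1a1, Bicd1, Ikzf2, Plod2, Zdhhc15, Tmtc2, Ddx3x, Gm42418 and Prss2. Adamts6, a secreted metalloprotease gene, had 158, 148 and 164 CPM in the IgG1 mice and 96.0, 104 and 115 CPM in the ipilimumab mice. Ikzf2 (Helios, a zinc finger factor of regulatory T cells and some NK cells) had 69.3, 79.2 and 79.8 CPM against 52.3, 48.0 and 51.6 CPM. For both genes the groups did not overlap. The log2 fold change of Ikzf2, -0.59 (SE 0.135), turned to 0.13 among NK cells with at most 1 UMI of 26 genes of other cells. Scgb1a1, the club cell secretory protein of the airway, had 13.1, 13.1 and 5.5 CPM against 137, 69.9 and 19.3 CPM, and the sum of the 6 epithelial markers, most of it Scgb1a1, was 16.2, 19.9 and 5.5 CPM against 158, 79.4 and 24.5 CPM. Gm42418, which overlaps ribosomal RNA sequence and is used as a sign of RNA quality, had 13443, 11338 and 12767 CPM against 10754, 7723 and 8250 CPM. The part that these sources of RNA play in the other differences was not tested.

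The count of 0 depended on the filter for low counts: without it, edgeR called 96 genes higher and 68 lower, of which 88 had passed the filter and were not called with it, led by the macrophage gene Chil3 and including Scgb1a1, Lyz2, S100a8 and S100a9 of other cells. With doublets removed Lyz2 alone was called, and without ipilimumab mouse 3 Scgb1a1 alone.

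**Figure D3:**
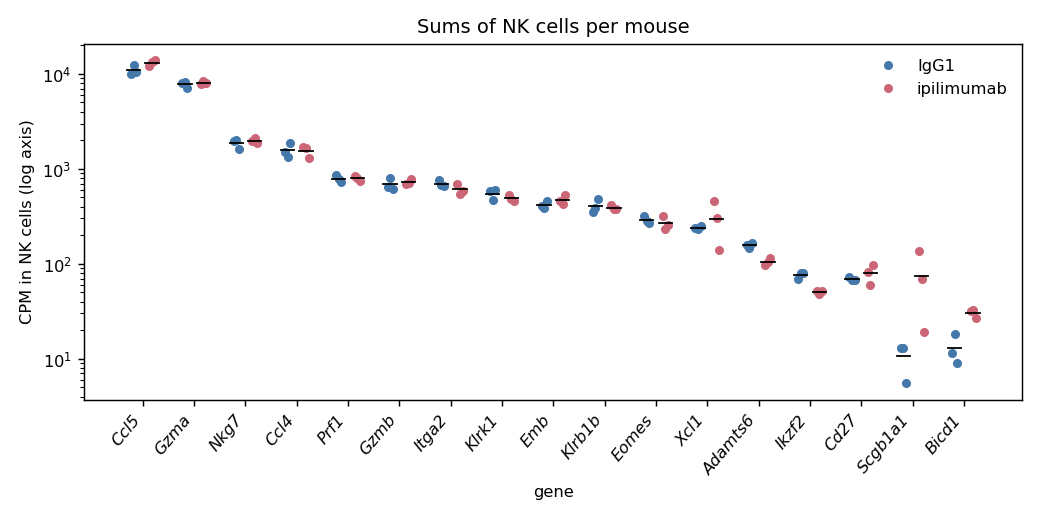
CPM (log axis) of 17 genes in the summed NK cells of each mouse; points are mice and bars the means of 3 mice. The mice of both groups overlap for Gzma, Gzmb, Prf1 and Cd27 and are apart for Adamts6, Ikzf2, Scgb1a1 and Bicd1, none of which was called.

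The treatment effect in NK cells was then set against that in the Ccl5-positive CD8 T cells of the same lungs, as an interaction with the mouse as a block. It was called for 0 of 9779 genes (0.00%) by edgeR, with 306 at an unadjusted p under 0.05. DESeq2, run without a filter for low counts, called 0 of 20411 genes, with 43 at an unadjusted p under 0.05. The smallest edgeR p was that of Ubash3b, a phosphatase gene that dampens T cell receptor signals, with a log2 difference of -0.88 (SE 0.141, edgeR adjusted p = 0.754). In simulated counts this edgeR test called 21 of 98 genes with a difference of 1 on the log2 scale. The count of 0 therefore does not show that NK and CD8 T cells respond alike. Without the filter for low counts, 16 genes were higher and 34 lower, 47 of them genes that had passed it, led by Kcnip4, and without ipilimumab mouse 1 only Chil3 was called.

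NK cells differed among themselves along Cd27. Cells with a Cd27 UMI, 44 to 75 per mouse, had more RNA of most immature NK cell and ribosomal protein genes tested and less of most mature NK cell genes, Gzma and Gzmb among the lower genes, than cells without one. The sums of both kinds of cells were compared over 6 mice with the mouse as a block. Of 7424 genes, 297 were called higher (4.0%) and 151 lower (2.03%) in cells with a Cd27 UMI, without Cd27 and the genes of the rule. Cells with a Cd27 UMI were deeper in every mouse, with a median of 6887 to 8904 UMIs against 5470 to 6532.

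Of the 10 immature NK genes tested, 9 rose and 0 fell, with a median log2 fold change of 1.38 beside 0.00 over all genes. Emb (embigin, a transporter chaperone of chromosome 13, 117208536 to 117274415) had 241, 241 and 272 CPM in the Cd27-negative cells of the IgG1 mice and 164, 228 and 338 CPM in those of the ipilimumab mice. In cells with a Cd27 UMI it had 770, 780 and 933 CPM and 1090, 832 and 918 CPM. Every Cd27-positive sum of Emb lay above every Cd27-negative sum (log2 fold change 1.91, SE 0.12, edgeR adjusted p = 2.55e-08). Tcf7 (TCF-1, a factor of immature lymphocytes) went from 23.0 ± 7.19 to 73.8 ± 12.9 CPM (log2 fold change 1.75, SE 0.199, adjusted p = 2.11e-05). Xcl1 went from 190 ± 74.7 to 450 ± 169 CPM (log2 fold change 1.32, SE 0.0865), higher in 6 of 6 mice. Thy1, Cd7, Ctla2a, Ly6e and the lymphotoxin gene Ltb rose as well, each in 6 of 6 mice, and Inpp4b in 5 of 6, while Cd69 (log2 fold change 0.48) did not pass.

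Of the 18 mature NK genes tested, 14 fell and 0 rose (median -0.65). Ly6c2, the Ly6C antigen of mature lymphocytes and monocytes, had 585 to 726 CPM in the Cd27-negative cells of the 6 mice and 126 to 346 CPM in the Cd27-positive cells, with no overlap (log2 fold change -1.51, SE 0.142, edgeR adjusted p = 4.66e-06). Itgam (CD11b) went from 245 ± 26.1 to 122 ± 14.4 CPM and Klrg1, an inhibitory receptor of terminally mature cells, from 127 ± 37.7 to 50.8 ± 16.5 CPM. S1pr5, the sphingosine phosphate receptor with which mature NK cells leave the marrow, fell by 1.18 on the log2 scale, and the transcription factor gene Zeb2 fell by 0.81. All 4 genes were lower in 6 of 6 mice.

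Of the 16 granule genes tested, 4 fell, namely Gzma, Gzmb, Nkg7 and Fasl (the Fas ligand), and 0 rose. Gzma had 7840 to 10226 CPM in Cd27-negative and 4514 to 6055 CPM in Cd27-positive cells (log2 fold change -0.76, SE 0.0728, edgeR adjusted p = 4.66e-06). Gzmb had 704 to 956 CPM against 272 to 543 CPM (log2 fold change -1.10, SE 0.106, adjusted p = 4.66e-06). Neither gene overlapped between the kinds of cells. Cma1, a protease gene of the mature list, fell by 1.47 on the log2 scale. Of the chemokine and cytokine genes tested, Ccl3, Ccl4 and Ccl5 fell and Xcl1 and Ltb rose, of 9 in all.

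Among receptors, the inhibitory genes Klrg1, Klrb1b and Klra9 fell (0 of 12 rose), and of 15 activating genes Cd160 and Crtam rose while Cd244a and Klrb1a fell. The log2 fold change of Cd244a was -0.41 (edgeR adjusted p = 0.0465) and turned to 0.62 in cells thinned to 1000 UMIs. Of the 15 cytokine receptor genes, Il12rb2 and Il18rap, which serve the responses to interleukins 12 and 18, fell by 0.61 and 0.78 on the log2 scale, and Il21r rose by 0.82. Of the 14 homing genes, Ccr2, Cxcr4 and S1pr1 rose and Itgam, S1pr5, Cx3cr1, Itgb2, Itga4 and Itga2 fell. Among 17 transcription factor genes, Tcf7, Tox and Ikzf2 rose, and Zeb2, Klf2, Irf8, Tbx21 (T-bet) and Id2 fell. The Tbx21 level went from 543 ± 69.6 to 366 ± 18.4 CPM. Of 83 ribosomal protein genes, a list made after the values were seen, 67 rose and 0 fell, with a median log2 fold change of 0.38.

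Of the 9 interferon-stimulated genes 0 were called, and of 9 cell division genes only Tubb5 rose. Of 13 immediate early genes, Fos, Fosb, Zfp36 and Nr4a1 rose and Hspa1b fell. Of the 5 checkpoint genes, the costimulatory receptor gene Cd28 and the PD-L1 gene Cd274 rose. Outside the lists, Ret, a receptor tyrosine kinase gene, had 4.48 ± 5.63 against 46.4 ± 32.5 CPM, Pakap 6.98 ± 3.97 against 47.9 ± 20.1 CPM and 4930417O13Rik 5.5 ± 4.14 against 32.0 ± 9.26 CPM. These 3 genes passed the filter on low counts mainly through the cells with a Cd27 UMI, so their values are a description. Kcnj8, a potassium channel gene, and Entpd1 (CD39, an enzyme that breaks down extracellular ATP) fell by 1.89 and 1.48 on the log2 scale.

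Markers of other cells moved with Cd27 as well. The T cell markers summed to 552 ± 62.0 CPM in Cd27-negative and 755 ± 69.9 CPM in Cd27-positive cells, higher in 6 of 6 mice, with Trbc1 and Cd28 called, and Ighm of B cells and H2-Ab1 of antigen-presenting cells were called higher, H2-Ab1 in 5 of 6 mice. Among the 844 NK cells with at most 1 UMI of 26 genes of other cells, 177 of 5034 genes were higher (3.52%) and 63 lower (1.25%). In those cells 7 of 8 immature genes rose and 12 of 17 mature genes fell, with Emb, Tcf7, Xcl1, Ly6c2, Gzma and Gzmb among the called, and 72 of 82 ribosomal protein genes rose. Fewer genes of most other lists were called there, where fewer genes were tested. Of 13 activating receptor genes 0 were called, of 15 granule genes Gzma and Gzmb fell, and Nkg7 and Fasl were not called. The median log2 fold change of the granule genes was -0.204 there and -0.207 over all NK cells. That of the cell division genes was 0.075 there and 0.62 over all NK cells. Of 14 cytokine receptor genes Il12rb2 and Il18rap fell, and Il21r was not called. Of 12 homing genes Ccr2 and Cxcr4 rose and Itgam and S1pr5 fell. Of 17 transcription factor genes Ikzf2 alone lost its call. Of 12 immediate early genes Fosb rose, of 4 checkpoint genes Cd28 rose, and of 5 cell division genes 0 were called. Of 6 chemokine and cytokine genes Xcl1 rose and Ccl4 and Ccl5 fell, and the 3 called inhibitory receptor genes all kept their call. In cells thinned to 1000 UMIs, where 4.49% to 6.86% of NK cells had a Cd27 UMI, only 2 of 1758 genes were called higher and 13 lower. Of the calls at full depth, 265 were tested there and 231 had the same direction. Tubb5, Fos, Tox and Itgb2 turned direction there, at -0.51, -0.55, -0.18 and 0.055 on the log2 scale.

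**Figure D4:**
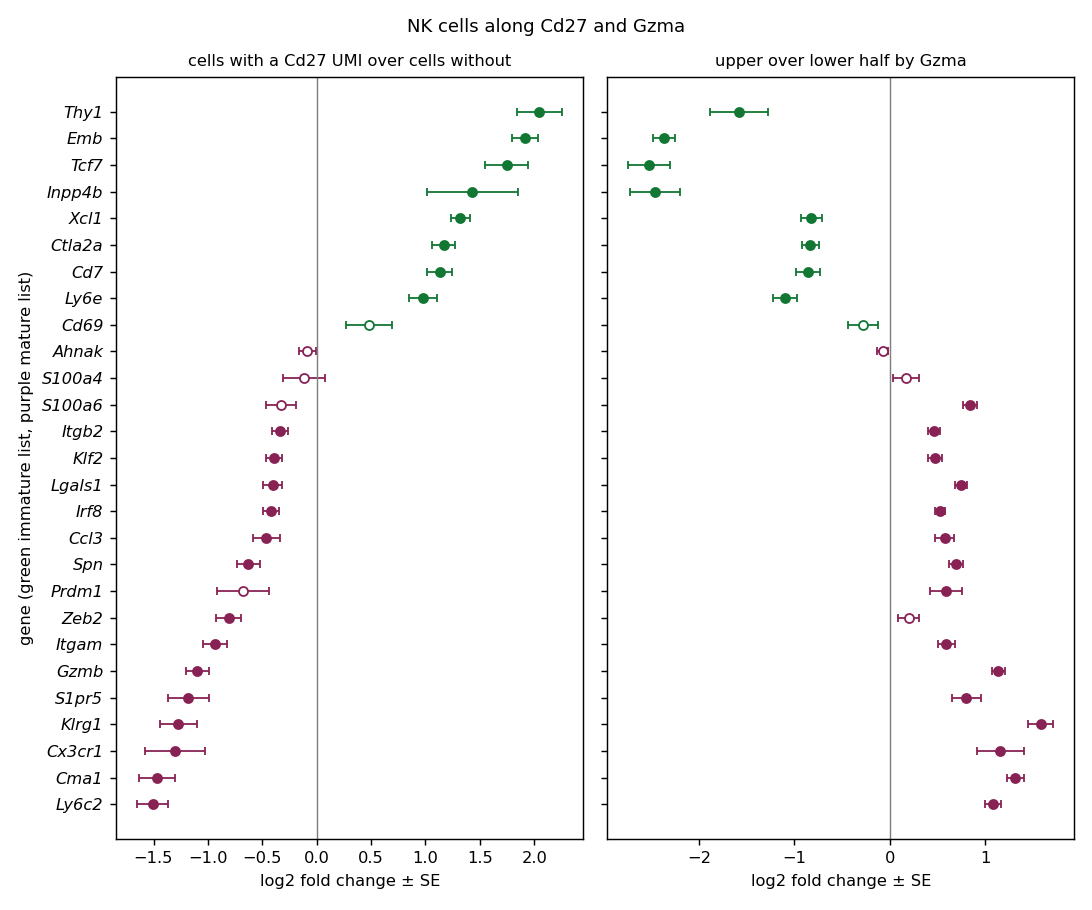
Log2 fold change ± SE of genes of the immature (green) and mature (purple) lists, left between NK cells with and without a Cd27 UMI and right between Gzma-high and Gzma-low NK cells, fitted over 6 mice. Filled points were called; the immature genes Thy1, Emb and Tcf7 lie right of 0 on the left and left of 0 on the right, and Ly6c2, Cma1 and Klrg1 the other way.

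Gzma was found in nearly all NK cells but at levels that spread widely. Per 10000 UMIs of a cell, the median Gzma count was 85.2, 83.1 and 72.7 in the IgG1 mice and 73.7, 99.7 and 78.9 in the ipilimumab mice. From the 5th to the 95th percentile of cells it ranged from 17.9 to 175 in IgG1 mouse 1 and from 13 to 197 in ipilimumab mouse 2, the mouse with the widest range. No Gzma UMI was seen in 1, 4, 5, 0, 3 and 2 cells of the 6 mice, in that order. Each mouse's NK cells were divided at its own median, which gave Gzma sums of 4083 to 5058 CPM in the Gzma-low cells and 10798 to 14232 CPM in the Gzma-high cells.

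Gzma-high cells had more RNA of most mature NK genes tested and Gzma-low cells more of most immature NK genes, but Gzma-low cells also held RNA of macrophages. Of 7157 genes, 213 were called higher (2.98%) and 365 lower (5.10%) in Gzma-high cells. The monocyte and macrophage markers summed to 1029 ± 699 CPM in Gzma-low and 165 ± 38.6 CPM in Gzma-high cells, lower in the latter in 6 of 6 mice. Lyz2 had 538, 250 and 693 CPM in the Gzma-low cells of the IgG1 mice and 491, 2165 and 432 CPM in those of the ipilimumab mice. In Gzma-high cells it had 21.9 to 65.6 CPM. Slc8a1, Fn1 and Cybb, genes expressed by macrophages, had 53.6 ± 33.9, 62.4 ± 53.9 and 65.7 ± 68.4 CPM in Gzma-low and 0.353 ± 0.865, 3.15 ± 1.41 and 3.18 ± 2.13 CPM in Gzma-high cells. These 3 genes passed the filter on low counts through the Gzma-low cells, so their values are a description. Lyz2 stood apart in ipilimumab mouse 2, but all 6 mice had it higher in Gzma-low cells.

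The same comparison was therefore made, as an alternative chosen after these values were seen, among the 844 NK cells with at most 1 UMI of 26 genes of other cells (60.9% of NK cells, from 44.1% to 74.1% by mouse). There 103 of 5713 genes were higher (1.80%) and 151 lower (2.64%), 210 of them shared with the calls on all NK cells. Slc8a1, Fn1 and Cybb had too few UMIs there to be tested. Of the 488 calls that were tested there, 473 had the same direction. The cells left out were deeper in every mouse, with a median of 6258 to 7903 UMIs against 5196.5 to 6478. On average 42.8% of Gzma-low and 33.4% of Gzma-high cells were left out, with ipilimumab mouse 3 the other way. Along Cd27 it was 44.2% of cells with a UMI and 36.2% without, with IgG1 mouse 1 and ipilimumab mouse 3 the other way. The values below are of all NK cells, and the counts among the 844 cells stand beside them.

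Of 18 mature NK genes, 15 rose and 0 fell in Gzma-high cells, and 16 rose among the 844 cells. Gzmb had 415 to 513 CPM in Gzma-low and 817 to 1185 CPM in Gzma-high cells, with no overlap (log2 fold change 1.14, SE 0.0663, edgeR adjusted p = 1.7e-10). Klrg1 had 30.7 to 88.0 CPM against 108 to 254 CPM (log2 fold change 1.58, SE 0.133). Cma1 rose from 138 ± 18.3 to 344 ± 59.7 CPM, and Irf8, a factor that NK cells need for full effector function, by 0.53 on the log2 scale. Of 15 granule genes, 7 rose (Gzmb, Nkg7, Fasl, Cst7, Unc13d, Serpinb9 and Ctsw) and Lamp1 fell, against 4 and 0 of 15 among the 844 cells, where Lamp1, a lysosome gene of many cells, lost its call (edgeR adjusted p = 0.546). Ccl3, Ccl4, Ccl5 and the interferon gamma gene Ifng rose and Xcl1 fell, of 8 cytokine genes tested. Ifng lost its call among the 844 cells.

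Of 10 immature NK genes, 9 fell and 0 rose, and 8 of 9 fell among the 844 cells. Emb had 600, 610 and 692 CPM in the Gzma-low cells of the IgG1 mice and 718, 653 and 823 CPM in those of the ipilimumab mice, against 62.5 to 181 CPM in Gzma-high cells (log2 fold change -2.37, SE 0.118, edgeR adjusted p = 1.25e-11). Cd27 itself, which the division by Gzma did not use, had 84.1 to 134 CPM in Gzma-low and 23.3 to 52.3 CPM in Gzma-high cells (log2 fold change -1.67, SE 0.137, adjusted p = 2.05e-08). Tcf7 fell by 2.53 and Tox, a factor of early lymphoid development, by 1.03 on the log2 scale. The immediate early genes Fos, Fosb, Zfp36, Nr4a1 and Egr1 fell, of 14, and only Fosb fell among the 844 cells. Of 83 ribosomal protein genes 11 fell and 0 rose, and 2 fell among the 844 cells.

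Of 12 inhibitory receptor genes, Klrg1, Klrb1b, Klrd1, Klra9 and Klra3 rose, and of 15 activating genes Cd244a, Slamf7, Klrb1a, Klrc2 and the adaptor gene Hcst rose and Crtam fell. Among the 844 cells 5 of 10 inhibitory genes rose and 1 fell, and of 14 activating genes only Klrb1a rose, while Klra4 and Crtam fell. Of 14 homing genes, Itgam, S1pr5, Cx3cr1, Itgb2, S1pr4, Itga2 and Itgb7 rose and Ccr2 fell, against 5 and 1 of 14 among the 844 cells. The integrin Itga2 had 575 ± 67.9 CPM in Gzma-low and 760 ± 124 CPM in Gzma-high cells, a log2 fold change of 0.40, and lost its call among the 844 cells. Gzma-low cells were deeper in every mouse, with a median of 6356.5 to 7786 UMIs against 5352.5 to 6741. The Cd27 and Gzma comparisons use the same cells, so their values stand side by side and do not count as separate evidence.

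**Figure D5:**
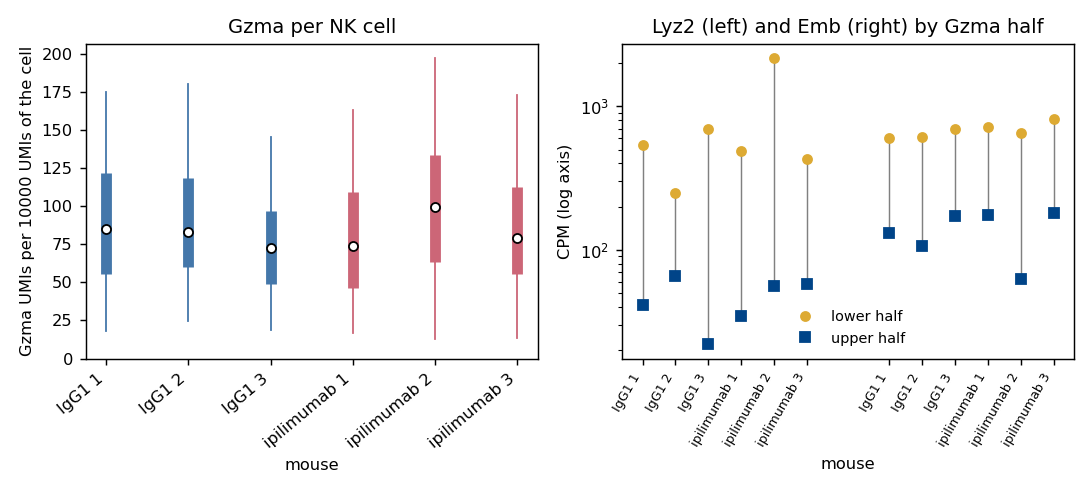
Left, Gzma UMIs per 10000 UMIs of each NK cell by mouse (circle, median; thick bar, 25th to 75th percentile; thin line, 5th to 95th). Right, CPM (log axis) of Lyz2 and Emb in the Gzma-low (circles) and Gzma-high (squares) cells of each mouse; both genes are higher in the Gzma-low cells of all 6 mice, and Lyz2 reaches 2165 CPM in ipilimumab mouse 2.

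Eomes, a lineage factor of NK cells, had 62.0% to 75% of NK cells with a UMI, and few other genes differed with it. Of 7161 genes, 14 were higher (0.196%) and 8 lower (0.112%) in cells with an Eomes UMI. Cells with an Eomes UMI were deeper in every mouse, with a median of 5931 to 7211 UMIs against 5080 to 6375. Ly6c2 had 634 to 815 CPM in cells without an Eomes UMI and 396 to 484 CPM in cells with one (log2 fold change -0.75, SE 0.0708, edgeR adjusted p = 2.16e-05), with no overlap. Klrb1b and Hopx, a homeobox protein of effector lymphocytes, fell by 0.62 and 0.58 on the log2 scale. Klra4, Ccr2, Emb, Aff3 and the cell cycle kinase gene Cdk6 rose by 0.56, 0.85, 0.57, 0.72 and 0.88, each in 6 of 6 mice. Tbx21, Gzmb and Itga2 were not called, and Gzma, lower in 6 of 6 mice, missed the limit on size (log2 fold change -0.28, SE 0.0488, edgeR adjusted p = 0.0181). Among the 844 cells Hopx, Emb and Cdk6 were not called, with log2 fold changes of -0.53, 0.44 and 0.68. The monocyte and macrophage markers summed to 305 ± 243 CPM without and 763 ± 574 CPM with an Eomes UMI, higher in 5 of 6 mice. S100a9, a neutrophil gene, was called at 3.29 with 5 of 6 mice, and 13.6 ± 6.55 against 149 ± 160 CPM. The number called ranged from 14 without IgG1 mouse 2 to 44 without ipilimumab mouse 3, and was 0 in cells thinned to 1000 UMIs. The balance of directions turned to 2 higher and 5 lower without the mouse block. It turned to 7 higher and 9 lower without ipilimumab mouse 2. Without ipilimumab mouse 3, 35 genes were higher and 9 lower, and without the filter on low counts 191 and 39. Among the 844 cells 22 were higher and 8 lower.

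Itga2 had a UMI in 81.6% to 89.6% of NK cells, so only 20 to 56 cells per mouse had none. Cells with an Itga2 UMI were deeper in every mouse, with a median of 5841.5 to 7065 UMIs against 5045 to 6525. Of 7168 genes, 1 was higher (0.0140%) and 6 were lower (0.0837%) in cells with an Itga2 UMI. The higher gene was Cdk14, a cyclin-dependent kinase gene. The lower genes were Nfkbia and Pim1, which activated lymphocytes induce, Xcl1, Emb, the nucleolar gene Npm1 and the immediate early gene Junb. Emb was lower in 5 of 6 mice, with 404 CPM without and 464 CPM with an Itga2 UMI in ipilimumab mouse 1. Nfkbia had 399, 423 and 377 CPM in the Itga2-negative cells of the IgG1 mice and 572, 310 and 461 CPM in those of the ipilimumab mice, against 179 to 262 CPM in cells with an Itga2 UMI (log2 fold change -0.95, SE 0.112, edgeR adjusted p = 0.000279). Xcl1 had 739, 706 and 565 CPM and 2738, 723 and 113 CPM in the Itga2-negative cells, against 146 to 227 CPM in cells with an Itga2 UMI. Ipilimumab mouse 1 thus held the highest Xcl1 value and ipilimumab mouse 3 alone went the other way (log2 fold change -1.97, SE 0.288, adjusted p = 0.00418, and -1.55 without ipilimumab mouse 1). The monocyte and macrophage markers summed to 295 ± 233 CPM without and 722 ± 528 CPM with an Itga2 UMI, and Nfkbia, Pim1 and Xcl1 were the lower genes still called among the 844 cells. Emb, Npm1 and Junb, at -0.66, -0.45 and -0.41 on the log2 scale over all NK cells, were at -0.48, -0.34 and -0.31 there and not called. Cdk14 was not called there either (log2 fold change 0.63, edgeR adjusted p = 0.065). Without IgG1 mouse 2 the count of calls was 2, without ipilimumab mouse 1 it was 11, and without ipilimumab mouse 3 it was 26. The balance of directions also turned, with 16 higher and 10 lower without ipilimumab mouse 3 and 117 higher and 43 lower without the filter on low counts. In cells thinned to 1000 UMIs 0 genes were higher and 6 lower, and 1 of the 7 calls was among them, although all 7 kept their direction.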

How the data were processed

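The authors made the libraries with the 10x Genomics 3' kit and deposited, for each mouse, UMI counts per gene and barcode of all barcodes, aligned to mm10 with Cell Ranger (version 4 per the file headers, 7.0.0 per the submitters' processing notes, and yet another in the study's methods); no normalization or cell filter had been applied. Counts of the selected barcodes were summed per mouse. The mouse was the replicate and each mouse is a library of its own. Sums were tested with the quasi-likelihood method of edgeR 4.0.16 (TMM factors, filterByExpr, Benjamini-Hochberg adjustment over all genes), with the mouse as a block within mice. Standard errors were taken from the fold change and the F statistic. CPM were divided by total UMIs alone. Ccl5-positive CD8 T cells had a Cd3e or Cd3d, a Cd8a or Cd8b1 and a Ccl5 UMI and no Cd4, Cd79a or Ncr1 UMI, and B cells at least 2 Cd79a UMIs and no UMI of Cd3e, Cd3d, Ncr1 or Klrb1c. Doublets (Scrublet, 0.8% per 1000 barcodes) were removed only as an alternative. Other alternatives were DESeq2 1.42.0, RLE factors, no low-count filter, stricter limits, thinning and leaving out each mouse. The scripts were tested on simulated data.

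Named genes were those of the rule, the 12 called genes of largest fold per direction with the same direction in every mouse, the called and most abundant members of 15 lists, and, under 5 calls, the 10 smallest p. The NK cells, lists and tests were chosen with earlier results of these data known. Some list members are not reported here and were left out of the lists. Promoters are from RefSeq.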

Additional observations from a re-analysis of the deposited data

Results flagged for a closer look

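Among barcodes of at least 300 but fewer than 1000 UMIs, which are below the limit used for cells, 25 barcodes of ipilimumab mouse 1 met the gene conditions for NK cells. The other libraries had 0 to 3 such barcodes, 3 being the highest count among the IgG1 mice. The library of ipilimumab mouse 1 also had 22056 barcodes of at least 100 UMIs, against 4834 to 6230 in the others, and 80.8% of its UMIs in cells, against 92.1% to 92.3%. These barcodes entered no comparison.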

How the results depend on the processing

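The difference in NK share (0.36 percentage points) turned to -0.048 with the rule applied to thinned barcodes and ranged from -0.69 to 1.5 on leaving out a mouse. It was 0.73 with at least 2000 UMIs and 1000 genes, where IgG1 mouse 1 (4.34%) held the lowest share. As a share of barcodes with a Ptprc UMI it was 0.72. The differences in detection of Cd27, Eomes, Itga2 and Gzma ranged from -0.50 to 0.69, -1.62 to 2.13, -1.80 to 0.21 and -0.98 to 0.75; with at least 2 UMIs of Ncr1 and Klrb1c those of Cd27 and Gzma were -0.53 and -0.51, and without thinning that of Eomes was -2.54. Treatment calls (0) became 164 without the low-count filter (88 of them of genes that pass it), 1 without doublets and 0 to 1 without a mouse; interaction calls became 50 without the filter (47 of genes that pass it) and 0 to 1 without a mouse. Calls along Cd27 (448) were 270 with DESeq2, 240 in cells with few UMIs of other cells, 15 after thinning and 311 to 418 without a mouse. Calls along Gzma (578) were 348, 254 and, without the filter, 1050, and 459 to 582 without a mouse. Calls along Eomes (22) were 230 without the filter, 7 without the mouse block, 0 after thinning and 14 to 44 without a mouse. Calls along Itga2 (7) were 34 with DESeq2, 15 with RLE factors, 16 without doublets, 160 without the filter (117 higher), 6 after thinning (1 shared), 4 without the mouse block, 4 in cells with few UMIs of other cells and 2 to 26 without a mouse. The causes were not tested. With 3 mice a group, replicate numbers did not pair mice (correlations of 0.115, 0.0509 and -0.151); a replicate block gave 0 treatment calls, and with balanced groups it leaves the share differences as they are by construction. Refits of single genes were matched by gene symbol. Direction and side of the threshold held in 2403 refits, the call was lost in 356 and gained in 13, and direction turned in 10. In thinned cells Cd244a (0.62), Fos (-0.55), Itgb2 (0.055), Tox (-0.18) and Tubb5 (-0.51) turned along Cd27 and Fam117a (0.37) along Eomes. In cells with few UMIs of other cells Ikzf2 turned under treatment (0.13) and Lcp2 along Gzma (0.035). The remaining turns were of Pakap along Gzma with DESeq2 (0.39) and without the filter (0.18). Matched by gene identifier, all 578 calls along Gzma kept their direction in those settings. The Pakap values there are of another entry with that symbol and are no turn of the called gene.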
